A study of Homo sapiens with 8 samples.

Results

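Interferon-stimulated genes are the effector arm of the antiviral response, and 39 of them, listed by symbol and matched by Ensembl ID among the 58735 gene IDs of the count files, were described here. The rule goes by gene symbol and uses no measured value. The cells were MOLM-13, a human acute myeloid leukemia line grown in suspension, from a study of how such cells become resistant to the alkylating agent busulfan. The libraries analysed are of untreated parental cells and of cells carried through 1, 3 or 5 courses with 1% DMSO, the vehicle of the busulfan arm, with 1 library each. None of these cells met busulfan, and no interferon or other agent is named for them. The labels give no passage number for the DMSO cultures, so time in culture and the number of courses cannot be told apart. The labels do not call any of them replicates of each other, so p-values measure only how far these libraries spread.

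Type I and type III interferons act on cell-surface receptors whose JAK kinases phosphorylate STAT proteins. STAT2 and IRF9 act within the ISGF3 complex, which binds interferon-stimulated response elements (ISREs) in promoters, while interferon gamma acts through GAS elements. Several of the induced genes, among them STAT2, IRF9 and USP18, belong to the circuit itself, and unphosphorylated STATs with IRF9 are known to hold a subset of the genes at a basal level without added interferon.

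The promoters are shown first, since they hold the motif that ISGF3 binds and the list was not chosen by sequence. RefSeq promoter windows (GRCh38.p14) were matched for 31 of the 39 genes, DDX58 under its current symbol RIGI. In the 250 bases before the annotated start, on either strand, the ISRE core GAAANNGAA was present in 18 of 31 promoters, which is 58.1%, and in 6.88% of all 35116 RefSeq promoters of the same length. The GAS core TTCNNNGAA was present in 8 of 31, which is 25.8%, and in 6.57% of all promoters. IFITM1, DDX60, BST2 and IFI27 held both motifs. The GAS match of IFI27 and 1 of those of BST2 overlap an ISRE match. STAT2, HERC6, TRIM25, MX1, SAMD9L, XAF1, PARP9, DTX3L and DDX58 held neither in this window. The 6 promoters printed here, each the 150 bases before the start read 5′ to 3′ on the gene's own strand with ISRE matches in capitals, belong to genes with contrasting courses in the values that follow. IFITM1 (chr11:313890-314039, plus strand), IFITM3 (chr11:320861-321010, minus strand) and BST2 (chr19:17405631-17405780, minus strand) were lower in all 3 DMSO libraries than in the parental one. ISG15 (chr1:1013347-1013496, plus strand), DDX60 (chr4:168318753-168318902, minus strand) and IFIT3 (chr10:89327847-89327996, plus strand) were lowest in DMSO course 1.
IFITM1: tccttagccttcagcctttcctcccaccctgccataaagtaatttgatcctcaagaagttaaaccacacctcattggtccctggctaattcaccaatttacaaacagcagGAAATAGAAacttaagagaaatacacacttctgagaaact
IFITM3: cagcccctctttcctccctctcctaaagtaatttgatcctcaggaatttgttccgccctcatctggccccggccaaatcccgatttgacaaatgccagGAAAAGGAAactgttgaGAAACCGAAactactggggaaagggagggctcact
BST2: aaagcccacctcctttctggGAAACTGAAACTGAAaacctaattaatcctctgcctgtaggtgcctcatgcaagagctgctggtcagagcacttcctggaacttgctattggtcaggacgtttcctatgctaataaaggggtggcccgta
ISG15: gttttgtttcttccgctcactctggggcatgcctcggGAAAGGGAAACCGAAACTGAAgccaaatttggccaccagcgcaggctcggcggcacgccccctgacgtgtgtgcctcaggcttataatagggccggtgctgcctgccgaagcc
DDX60: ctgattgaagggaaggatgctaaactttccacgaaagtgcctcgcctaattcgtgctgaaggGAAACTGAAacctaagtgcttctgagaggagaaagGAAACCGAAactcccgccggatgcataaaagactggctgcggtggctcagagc
IFIT3: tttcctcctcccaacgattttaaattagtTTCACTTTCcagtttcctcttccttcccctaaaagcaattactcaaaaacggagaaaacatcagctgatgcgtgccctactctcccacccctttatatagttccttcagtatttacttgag
ISG15 carries 3 overlapping matches in 1 run, 93 to 113 bases before the start, and BST2 carries 2 that overlap. The matches of IFIT3 lie on the other strand and appear as their reverse complement here, and 1 of its 2 straddles the first printed base and is not capitalized. Both kinds of course therefore occur among promoters with an ISRE core, and a match is a description of the letters and not of binding.

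**Figure D1:**
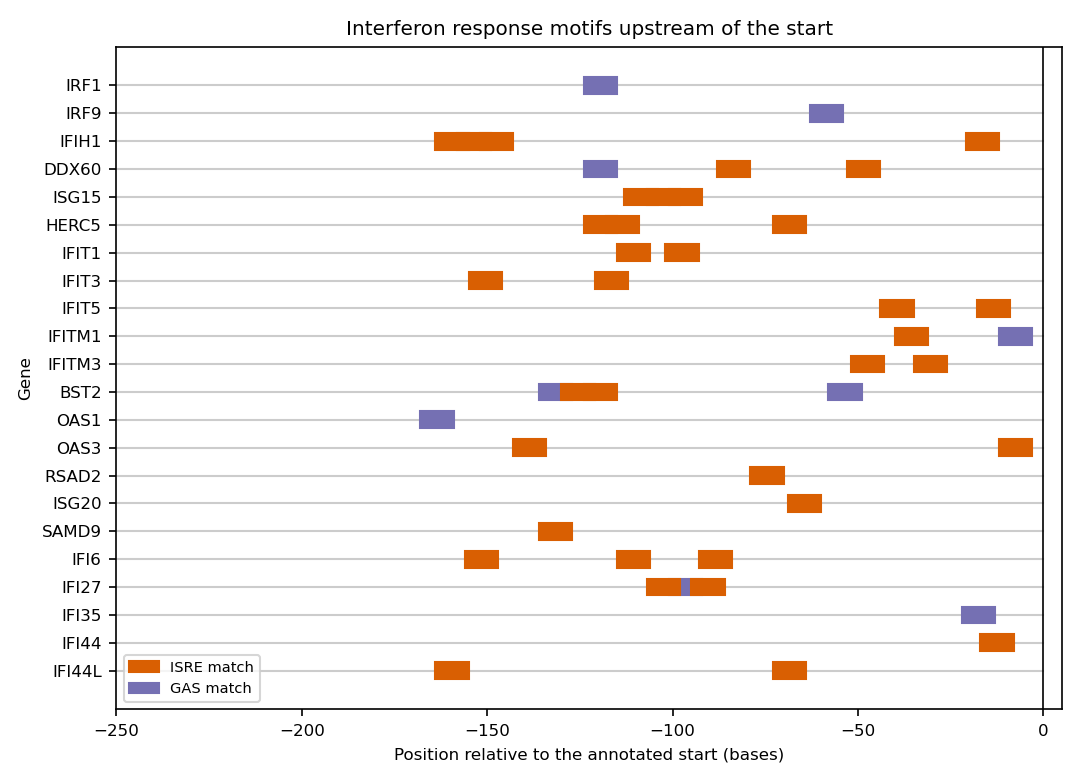
Positions of ISRE (orange) and GAS (purple) core matches, in bases before the annotated start, in the 22 interferon-stimulated genes whose 250-base RefSeq window holds at least 1. All matches lie within 168 bases of the start, and IFIH1, ISG15 and IFI6 have 3 or more ISRE matches, as has HERC5.

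Depth was 56825811 gene counts for parental cells, then 44795976, 50855326 and 45095954 for courses 1, 3 and 5. Levels are given as CPM, counts scaled for library size with TMM factors, on which 3 counts correspond to 0.0507 to 0.0696 CPM. Of the 39 genes, 28 had a mean of at least 1 CPM and 17 of at least 5 CPM. The other 11 lay under 1 CPM, and IFITM1, OAS1 and MX1 passed 1 CPM only through the libraries where they were higher. The number of genes with over 3 counts was 36 in parental cells and 31, 32 and 31 in courses 1, 3 and 5. All 10 markers of the labelled myeloid type were at 1 CPM or more, with sums of 3234, 4451, 4009 and 3339 CPM in the same order. Of the markers of other cells, the plasmacytoid dendritic cell list of 4 genes summed to 145 CPM in parental cells and 179, 131 and 112 CPM in courses 1, 3 and 5. Nearly all of it was IL3RA, the other 3 genes averaging under 1 CPM, with LILRA4 at 0 throughout. The B-cell list summed to at most 3.34 CPM and the erythroid list to at most 0.0232 CPM in any library. In bulk RNA, fewer cells with a transcript and less of it per cell cannot be told apart.

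Summed over all 39 genes, the level was 856 CPM in parental cells, 1096 CPM in course 1, 813 CPM in course 3 and 771 CPM in course 5, most of it from STAT2, TRIM25, BST2 and XAF1. Per kilobase of exon the order of mean levels was BST2 at 73.4, STAT2 at 30.6, TRIM25 at 22.6, IFITM2 at 19.1 and XAF1 at 13.2 CPM per kb. Below these came DTX3L at 9.39, GBP2 at 6.58, IFI35 at 6.34 and IRF1 at 5.02 CPM per kb. Some strongly inducible genes were near the bottom of the range: IFIT1, OAS2, OAS3, RSAD2, IFI44 and IFI44L had at most 24 counts in any library. Others were not, with mean levels of 4.42 CPM per kb for ISG15, 3.51 for IFITM3 and 2.22 for IFI6.

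**Figure D2:**
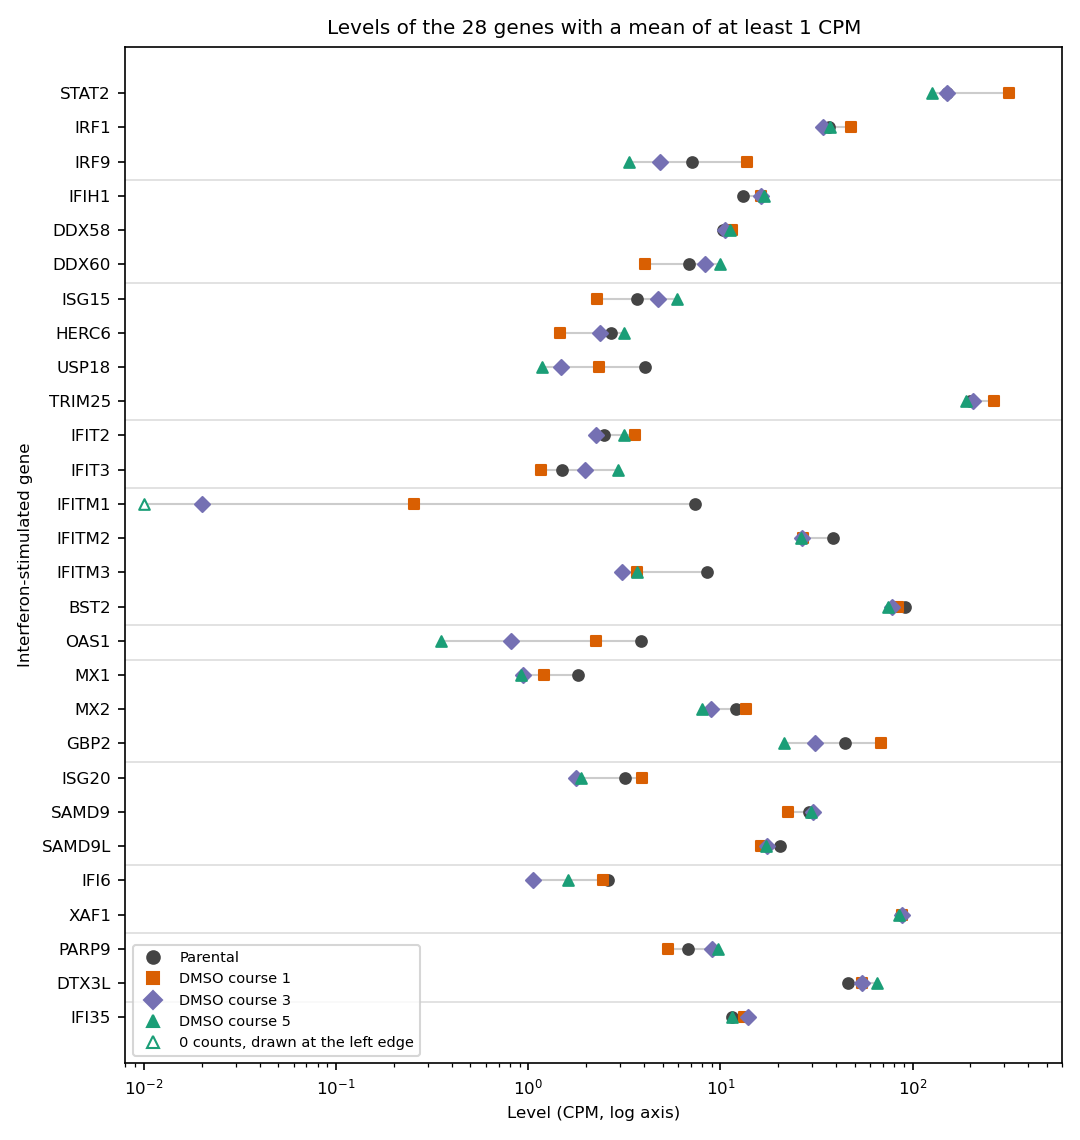
Level in CPM (log axis) of the 28 interferon-stimulated genes averaging 1 CPM or more, 1 point per library, grouped by role. XAF1, DDX58 and IFIH1 differ little between libraries, STAT2, IRF9 and GBP2 are highest in DMSO course 1, and IFITM1 reaches 0 counts in course 5 (open triangle at the left edge).

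Among the transcription factors, STAT2 and IRF9 of the ISGF3 complex stood highest in DMSO course 1. STAT2 (ENSG00000170581) had 151 CPM in parental cells and 318, 152 and 126 CPM in courses 1, 3 and 5. Course 1 was thus 2.11-fold above parental cells, with a log2 ratio of 1.07 and a 95% interval of 1.04 to 1.11. These intervals are exact binomial ones and cover counting error only, so they hold no replicate check. IRF9 (ENSG00000213928), the DNA-binding partner, had 7.15 CPM in parental cells and 13.7, 4.86 and 3.34 CPM in courses 1, 3 and 5. Its log2 ratio to parental cells was 0.94 in course 1 (0.76 to 1.12), -0.56 in course 3 and -1.10 in course 5 (-1.38 to -0.83). The span of IRF9 overlaps on the same strand that of AL136295.5, which had 320 counts over the 4 libraries, so reads from the overlap cannot be assigned. IRF1, a factor induced by both interferon types, had 36.8 CPM in parental cells and 48.1, 34.4 and 37.3 CPM in courses 1, 3 and 5.

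IRF7, the factor that amplifies type I interferon production, had 2 counts in parental cells and 0 in the 3 DMSO libraries. Of its 8 nearest coding genes 5 were also at 3 counts or fewer in every library, among them the neighbour PHRF1 at 0, while 5952 of 19951 coding genes were so low overall. Around IFIH1, which had counts in every library, 6 of 8 were so low, and around DDX60 5 of 8. These numbers of low neighbours are given as a description only. The level of IRF7 was not interpreted, and the cause was not tested.

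Of the cytosolic RNA sensors, IFIH1 and DDX58 differed little between libraries and DDX60 differed more. IFIH1, which encodes MDA5 and detects long double-stranded RNA, had 13.2 CPM in parental cells and 16.3, 16.2 and 16.9 CPM in courses 1, 3 and 5. DDX58, which encodes RIG-I, lay between 10.4 and 11.4 CPM in all 4 libraries. DDX60, a helicase linked to RIG-I signalling, had 6.84 CPM in parental cells and 4.06, 8.36 and 9.98 CPM in courses 1, 3 and 5. Course 5 of DDX60 was 2.46-fold above course 1 (log2 ratio 1.30, interval 1.04 to 1.56), and course 3 was 2.06-fold above it.

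The genes of ISG15 conjugation did not move as one. ISG15, the ubiquitin-like modifier, had 3.68 CPM in parental cells and 2.27, 4.72 and 5.95 CPM in courses 1, 3 and 5, so that course 5 was 2.61-fold above course 1 (log2 ratio 1.39, interval 1.05 to 1.73). HERC6, of the family of the human ISG15 ligase HERC5, had 2.70 CPM in parental cells and 1.46, 2.37 and 3.14 CPM in courses 1, 3 and 5. HERC5 itself was low, with 22 counts in parental cells and 30, 38 and 75 counts in courses 1, 3 and 5. USP18, the protease that removes ISG15 and restrains the type I receptor, ran the other way. It had 4.07 CPM in parental cells and 2.34, 1.47 and 1.19 CPM in courses 1, 3 and 5, and its log2 ratio to parental cells in course 5 was -1.78 (-2.24 to -1.35). TRIM25, the ubiquitin ligase that acts on RIG-I, was abundant at 199 CPM in parental cells and 265, 206 and 191 CPM in courses 1, 3 and 5.

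The IFIT proteins bind viral RNA ends and work as complexes. IFIT3 had 1.504 CPM in parental cells and 1.16, 1.97 and 2.92 CPM in courses 1, 3 and 5, with course 5 at 2.52-fold of course 1 (log2 ratio 1.33, interval 0.85 to 1.83). IFIT2 had 2.47 CPM in parental cells and 3.60, 2.25 and 3.16 CPM in courses 1, 3 and 5. IFIT2 was thus highest in the library where IFIT3 was lowest. IFIT1 had 22 counts in parental cells and 8, 7 and 2 counts in courses 1, 3 and 5, and IFIT5 had 19, 1, 5 and 12 counts in the same libraries. The spans of IFIT1, IFIT2 and IFIT3 overlap on the opposite strand that of LIPA, which had 16033 counts over the 4 libraries. The effect of this overlap on their counts was not tested.

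The membrane restriction factors, which block virus entry or hold budding virions at the cell surface, were lower in all 3 DMSO libraries than in parental cells. IFITM1 (ENSG00000185885) had 438 counts in parental cells and 11, 1 and 0 counts in DMSO courses 1, 3 and 5, or 7.40, 0.255, 0.0199 and 0 CPM in that order. The libraries stood far apart: course 1 was 29-fold below parental cells (log2 ratio -4.86, interval -5.87 to -4.00). For the single count in course 3 the log2 ratio was -8.54, with an interval of -13.8 to -6.05. Set at the floor of 3 counts, course 5 was at least 112-fold lower than parental cells. IFITM3 had 8.55 CPM in parental cells and 3.67, 3.07 and 3.66 CPM in courses 1, 3 and 5, with log2 ratios of -1.22, -1.48 and -1.22. IFITM2 had 38.3 CPM in parental cells and 27.0, 26.5 and 26.2 CPM in the courses, a step with little spread among the DMSO libraries. BST2, or tetherin, had 91.1 CPM in parental cells and 84.5, 78.5 and 74.7 CPM in courses 1, 3 and 5. IFITM1, IFITM2 and IFITM3 are closely similar neighbours, and IFITM1 and IFITM2 overlap on the same strand, so the split of reads between them is uncertain. Multiply aligned reads, which count for no gene, were 13.86% of the reads in parental cells and 15.39%, 14.24% and 21.33% in courses 1, 3 and 5.

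The T-cell markers CD3D and CD3E were also highest in parental cells: CD3D had 243 counts there and 24, 3 and 4 counts in courses 1, 3 and 5, and CD3E had 9 and then 0 in each. The whole list of 6 T-cell markers summed to 52.3 CPM in parental cells and 71.8, 81.5 and 61.0 CPM in courses 1, 3 and 5, nearly all of it TRAC, while CD2 was at 0. The 5 fibroblast markers summed to 4.66, 3.69, 1.06 and 0.768 CPM in the same order, led by COL1A1, and 2 of the 5 were at 0. The part of these markers in the IFITM1 and OAS1 values was not tested.

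**Figure D3:**
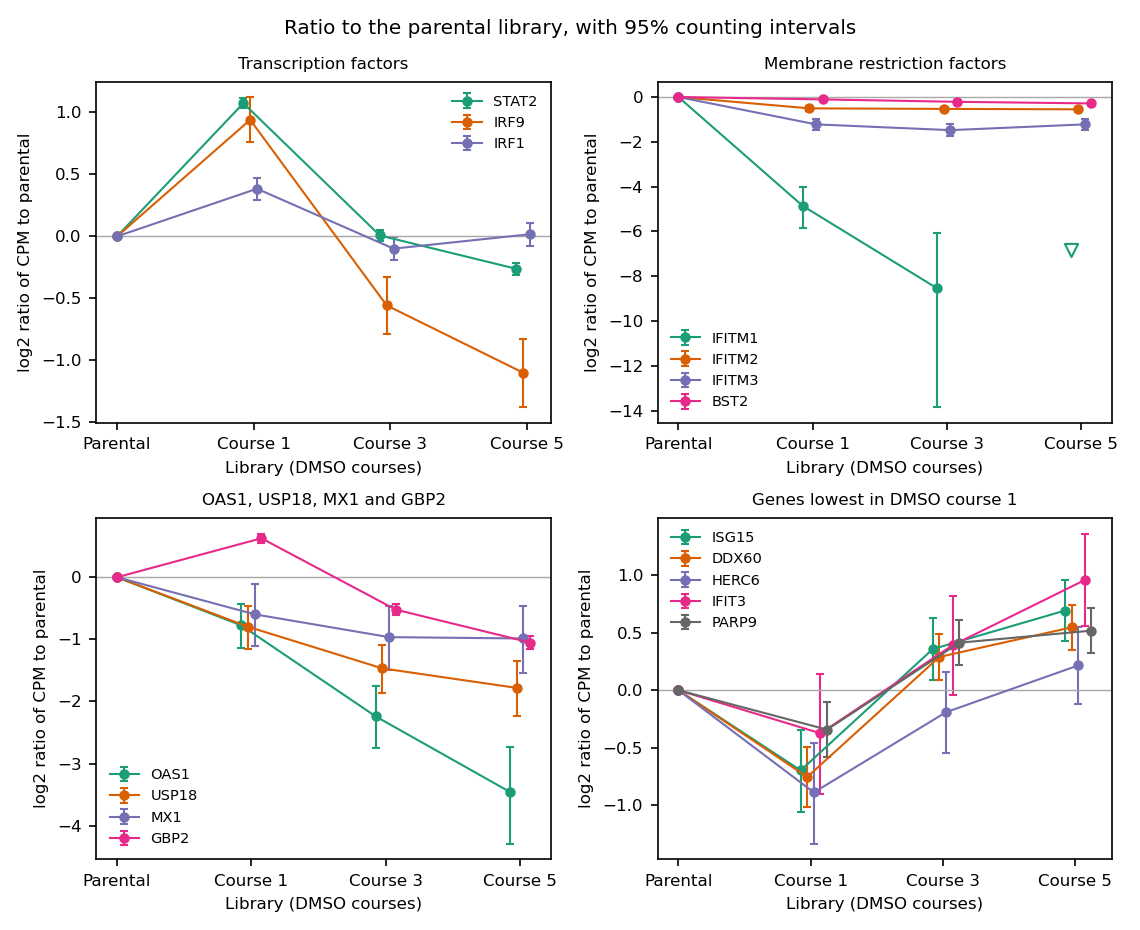
log2 ratio of CPM to the parental library for selected genes along the DMSO courses, with exact 95% counting intervals. STAT2 and IRF9 peak in course 1, IFITM1 lies furthest below parental cells (the open triangle is the bound for 0 counts in course 5), and OAS1 and USP18 are lower in each later course. ISG15, DDX60, HERC6, IFIT3 and PARP9 were picked for their lowest level in course 1, an order seen in 34.8% of all genes. SAMD9 and SAMD9L had the same lowest library and are not drawn. The course 1 interval of IFIT3 (-0.90 to 0.14) includes a log2 ratio of 0.

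The OAS enzymes make oligoadenylates that switch on RNase L. OAS1 (ENSG00000089127), the most abundant of them, had 228 counts in parental cells and 97, 41 and 16 counts in courses 1, 3 and 5, or 3.85, 2.25, 0.816 and 0.351 CPM in that order. Each library was lower than the one before, and course 5 was 11-fold below parental cells (log2 ratio -3.46, interval -4.29 to -2.73). OAS1 was also the 1 gene of the 28 apart between course 5 and course 3, with a log2 ratio of -1.22 (-2.15 to -0.35). OAS2 had 20, 6, 1 and 0 counts in parental cells and courses 1, 3 and 5, OAS3 had 24, 3, 4 and 5, and the enzymatically inactive OASL had 11, 2, 11 and 18. OAS2 and OAS3 were thus highest in parental cells, whereas OASL was not.

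Of the GTPases, GBP2 had 44.4 CPM in parental cells and 68.6, 30.9 and 21.4 CPM in courses 1, 3 and 5. Course 5 was 1.05 lower than parental cells on the log2 scale (log2 ratio -1.05, interval -1.16 to -0.94), and 1.68 lower than course 1. MX1, which traps viral nucleocapsids, had 1.82 CPM in parental cells and 1.21, 0.936 and 0.922 CPM in courses 1, 3 and 5. MX2, which restricts HIV at the nuclear pore, had 12.1 CPM in parental cells and 13.6, 8.94 and 8.03 CPM in courses 1, 3 and 5. GBP2 and MX2 shared the peak in course 1 and the lowest level in course 5.

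Among the other effectors, the nuclease gene ISG20 had 3.18 CPM in parental cells and 3.90, 1.77 and 1.89 CPM in courses 1, 3 and 5, with log2 ratios of -1.14 in course 3 and -1.05 in course 5 against course 1. SAMD9 and SAMD9L, neighbouring genes that restrain poxviruses and are mutated in some myeloid neoplasms, stayed within 2-fold across the libraries. Both were lowest in course 1. SAMD9 had 29 CPM in parental cells and 22.5, 30.3 and 29.6 CPM in courses 1, 3 and 5, and SAMD9L lay between 16.3 and 20.4 CPM. RSAD2, or viperin, had 11, 1, 1 and 2 counts in parental cells and courses 1, 3 and 5.

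IFI6, a mitochondrial and endoplasmic reticulum protein gene, had 2.602 CPM in parental cells and 2.44, 1.06 and 1.60 CPM in courses 1, 3 and 5, with a log2 ratio to parental cells of -1.30 in course 3 (-1.78 to -0.84). XAF1, a pro-apoptotic partner of XIAP, was among the most even, between 84.6 and 88.5 CPM in all 4 libraries. IFI27 was at 0 in all 4, and all 8 of its nearest coding genes were at 3 counts or fewer as well, so its zeros cannot be read as low expression. PARP9 and its ubiquitin ligase partner DTX3L share a divergent promoter. PARP9 had 6.79 CPM in parental cells and 5.36, 9.04 and 9.72 CPM in courses 1, 3 and 5. DTX3L had 46.4 CPM in parental cells and 54.3, 54.4 and 65.2 CPM in the courses. They overlap on opposite strands, and both were highest in course 5. IFI35 lay between 11.4 and 13.9 CPM, IFI44 had 8, 3, 3 and 3 counts, and IFI44L had at most 1 count in any library.

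Library by library, few of the genes stood apart from parental cells. The word apart is used where the ratio reached 2-fold and the counting interval left out a ratio of 1, and for a count of 0 the upper end of the interval was used. In course 1 against parental cells, 1 of the 17 genes of at least 5 CPM was higher (STAT2) and 0 were lower, while 3.70% and 4.18% of all 10710 genes of that level were higher and lower. In course 3 against parental cells 0 of 17 were apart in either direction, beside 2.23% higher and 2.34% lower over all genes. In course 5 against parental cells 0 were higher and 2 lower (IRF9 and GBP2), beside 2.96% and 4.92%. Between DMSO libraries, course 3 against course 1 had 1 of 17 higher (DDX60) and 3 lower (STAT2, IRF9 and GBP2), beside 3.90% and 4.82%. Course 5 against course 1 had the same genes, 1 higher and 3 lower, beside 7.14% and 9.08%. Course 5 against course 3 had 0 of 17 in either direction, beside 0.0747% and 0.924%. These counts of 0 to 3 rest on single genes and say little about the set.

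With the minimum at 1 CPM the counts grew on the lower side. In course 1 against parental cells 1 of 28 was higher and 2 were lower (IFITM1 and IFITM3), beside 4.83% and 5.70% of all 13589 genes. In course 3 against parental cells 0 were higher and 5 lower (USP18, IFITM1, IFITM3, OAS1 and IFI6), beside 3.56% and 4.13%. In course 5 against parental cells 0 were higher and 6 lower (IRF9, USP18, IFITM1, IFITM3, OAS1 and GBP2), beside 4.24% and 7.32%. These 3 comparisons share the single parental library, so their counts are not independent of each other. IFITM1 and OAS1, among the lower genes of courses 3 and 5, reached the minimum only through libraries where they were higher, so these counts support nothing about the set. Course 3 against course 1 had 2 higher (DDX60 and ISG15) and 7 lower (STAT2, IRF9, IFITM1, OAS1, GBP2, ISG20 and IFI6), beside 5.14% and 6.14%. Course 5 against course 1 had 4 higher (DDX60, ISG15, HERC6 and IFIT3) and 6 lower (STAT2, IRF9, IFITM1, OAS1, GBP2 and ISG20), beside 8.40% and 11.1%. Course 5 against course 3 had 0 higher and 1 lower (OAS1), beside 0.368% and 2.11%. Each of these comparisons between DMSO libraries also has IFITM1 or OAS1 among its lower genes. Their counts therefore support nothing about the set either.

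The median of the 28 genes stayed near 0 in every pair. It was -0.10, -0.16 and -0.15 on the log2 scale for courses 1, 3 and 5 against parental cells, beside 0.02, 0.01 and 0.02 for all genes. It was -0.19 for course 3 and -0.18 for course 5 against course 1, beside 0.03 for all genes in both. It was 0.02 for course 5 against course 3, beside 0.01. By order alone, 9 of 28 were lower in all 3 DMSO libraries than in parental cells (USP18, IFITM1, IFITM2, IFITM3, BST2, OAS1, MX1, SAMD9L and IFI6), beside 23.0% of all genes. Of these, IFITM1, OAS1 and MX1 reached the minimum only through libraries where they were higher, so this count supports nothing about the set. In all 3 DMSO libraries, 3 of 28 were higher than in parental cells (IFIH1, DDX58 and DTX3L), beside 25.9%. Scaled by total counts in place of TMM, DDX58 turned lower in course 3 (log2 ratio -0.05) and left both this group and the one highest in course 1. The lowest level was in course 1 for 7 of 28 (DDX60, ISG15, HERC6, IFIT3, SAMD9, SAMD9L and PARP9), beside 34.8%. The highest level was in course 1 for 9 of 28 (STAT2, IRF1, IRF9, DDX58, TRIM25, IFIT2, MX2, GBP2 and ISG20), beside 33.4%.

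**Figure D4:**
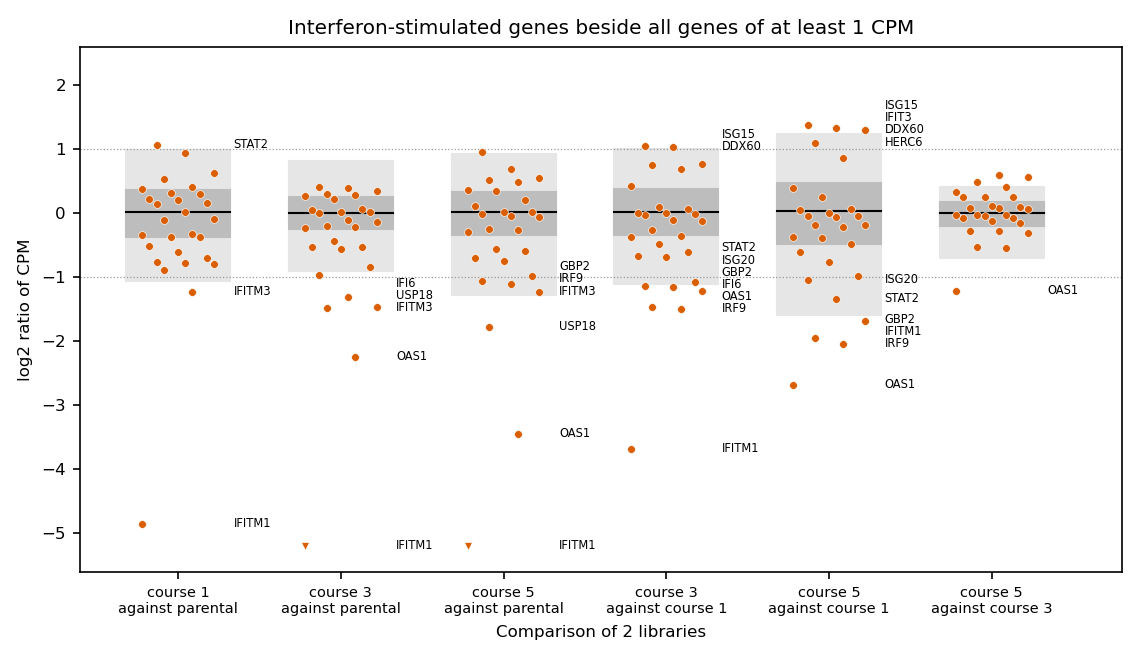
log2 ratio of CPM for each of the 28 interferon-stimulated genes (orange points, named where apart) in the 6 comparisons of 2 libraries, over all 13589 genes of at least 1 CPM (black line, median; dark band, quartiles; light band, 5 to 95 percentiles). Most points lie within the light band, and the spread between courses 5 and 3 is the narrowest. Against parental cells, IFITM1 lies below the band in all 3 courses (triangles where it is off the axis), and OAS1 and USP18 in courses 3 and 5. IFITM3 lies below it in courses 1 and 3, and IFI6 and MX1 in course 3. STAT2 in course 1 and IFIT3 in course 5 lie above it.

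With the 3 DMSO libraries pooled against parental cells, edgeR's quasi-likelihood test (Benjamini-Hochberg adjustment over 18612 genes) called 0 of the 34 interferon-stimulated genes tested and 0% of all genes. IRF7, RSAD2, IFI27, IFI44 and IFI44L did not reach the count minimum. At an unadjusted p under 0.05 there were 4 of the 34 and 1045 of all genes. These were IFITM1, with a pooled log2 fold change of -6.34 ± 1.26 (SE; adjusted p = 0.479), IFITM3 at -1.30 ± 0.31 (adjusted p = 0.606), OAS3 at -2.20 ± 0.71 (adjusted p = 0.813) and USP18 at -1.29 ± 0.48 (adjusted p = 0.877). limma-voom also called 0, and so did DESeq2, which called 1.12% of all genes and none of these. The fit had 2 residual degrees of freedom, with its spread taken from DMSO libraries of different courses. Left out, course 1 decided the count: without it 6 of 34 were called, all lower (GBP2, IFITM1, IFITM3, OAS1, OAS2 and USP18), beside 10.4% of all genes. The pooled log2 fold change of IFITM1 was then -9.17 (adjusted p = 1.32e-07 by edgeR), and it was -5.85 without course 3 and -5.77 without course 5. Without course 3 only IFITM1 was called (adjusted p = 0.0461), beside 0.178%, and without course 5 0 were, beside 0.0324%. With no filter on low counts 0 were called, beside 0.0454%.

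The slope over 0, 1, 3 and 5 courses likewise called 0 of 34 with edgeR's quasi-likelihood test, and 0% of all genes. At an unadjusted p under 0.05 there were 9 of the 34 and 2940 of all genes. The smallest adjusted p were those of IFITM1, with a slope of -3.51 ± 0.34 log2 units per course (SE; adjusted p = 0.0944), and OAS1, with -0.70 ± 0.09 (adjusted p = 0.115). The other 7 were GBP2, IFIT1, IRF9, OAS2 and USP18 with negative slopes and HERC5 and IFIT3 with positive ones, at adjusted p of 0.189 to 0.305. DESeq2 called IFITM1 (adjusted p = 3.88e-08) and OAS1 (adjusted p = 5.24e-06), beside 4.77% of all genes, and limma-voom called 0. Without a filter on low counts edgeR called the same genes, IFITM1 and OAS1, beside 0.468% of all genes. The slope of IFITM1 was -2.46 by DESeq2 and -2.37 by limma-voom, and leaving out 1 of the DMSO libraries gave -2.73 to -4.53 by edgeR, with -4.53 without course 3 and -2.73 without course 1. Without the parental library 7 of 31 were called, 3 with a positive slope (DDX60, IFIT3 and ISG15) and 4 with a negative one (GBP2, IRF9, OAS1 and STAT2), beside 21.1% of all genes. Without course 1 there were 7 of 34, HERC5 with a positive slope and GBP2, IFITM1, IRF9, OAS1, OAS2 and USP18 with negative ones, beside 15.4%. Without course 3 IFITM1 alone was called, beside 0.0973%, and without course 5 0 were, beside 0.0162%.

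Upstream of these genes, the interferons themselves were all but missing from the counts. Of 21 interferon ligand genes, 20 were at 0 in every library, and IFNL3 had 2 counts each in courses 3 and 5. Reads with several alignments were counted for no gene, so zeros of closely similar genes, such as the IFNA family, need not mean absence. The receptors and JAK kinases were present, 8 of 9 at a mean of 1 CPM or more, and all 8 were higher in course 1 than in parental cells, with a median log2 ratio of 0.33. Over all 13589 genes of that level 6976 were higher in the same comparison, with a median of 0.02. Of the 8, IFNAR1 turned lower (-0.08) and TYK2 came to 0 when scaled by total counts. In course 3 they were 4 higher and 4 lower and in course 5 they were 5 and 3, beside 6957 and 6991 of all genes higher. IFNLR1, the specific chain of the type III receptor, had 4.60 CPM in parental cells and 16.4, 6.23 and 5.16 CPM in courses 1, 3 and 5. IFNAR2, of the type I receptor, had 37.2 CPM in parental cells and 72.9, 48.0 and 38.6 CPM in the courses. Both thus peaked in course 1, as STAT2 and IRF9 did. The kinase genes JAK2 and TYK2 differed by less, with pooled log2 fold changes of 0.44 and -0.33. SOCS3 and SOCS1, which feed back on JAK kinases, had 9.26 and 5.83 CPM in parental cells, 17.4 and 9.89 CPM in course 1, 11.2 and 5.24 CPM in course 3, and 6.30 and 5.62 CPM in course 5. IRF2 and STAT3 had pooled log2 fold changes of 0.34 and 0.28.

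Of 15 genes of nucleic acid sensing, 10 were at 1 CPM or more and 0 passed the pooled test. CGAS, the cytosolic DNA sensor, had 39.4 CPM in parental cells and 59.3, 78.3 and 65.5 CPM in courses 1, 3 and 5, with a pooled log2 fold change of 0.78 ± 0.26 (SE; adjusted p = 0.832 by edgeR's quasi-likelihood test). MYD88, the adaptor of Toll-like receptors, was lower, with 50.4 CPM in parental cells and 36.9, 29.5 and 30.6 CPM in the courses. IFI16, a nuclear DNA sensor, had 11.7 CPM in parental cells and 7.38, 5.16 and 8.34 CPM in the courses, and the kinase gene TBK1 had 38.1, 64.0, 40.3 and 43.9 CPM in parental cells and courses 1, 3 and 5.

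Among 34 further interferon-stimulated genes, 27 were at 1 CPM or more and 0 passed the pooled test. In course 1 against parental cells 16 were higher and 11 lower, in course 3 there were 12 and 15, and in course 5 there were 16 and 11. Over all 13589 genes 6976, 6957 and 6991 were higher in these comparisons. GBP5 and GBP4, guanylate-binding proteins like GBP2, were low in every DMSO library. GBP5 had 274 counts in parental cells and 42, 27 and 6 counts in courses 1, 3 and 5, with a pooled log2 fold change of -3.08 ± 0.88 (SE; adjusted p = 0.744 by edgeR's quasi-likelihood test). GBP4 had 408 counts in parental cells and 78, 30 and 24 counts in the courses, at -2.82 ± 0.73 (adjusted p = 0.666 by the same edgeR test). PARP12 had 196 counts in parental cells and 15, 68 and 190 counts in the courses, a low point in course 1 like that of ISG15 and DDX60. UBE2L6, the conjugating enzyme for ISG15, had 11.4 CPM in parental cells and 15.99, 16.5 and 23.8 CPM in the courses. The MHC class I list could be read for only 4 of 14 genes, since 10 lay under 1 CPM and TAP1, PSMB8 and PSMB9 were at 0. The cause of such low counts was not tested. Of the 4 that were measured, ERAP1, NLRC5, B2M and PSMB10 had pooled log2 fold changes of 0.50, 0.38, -0.20 and -0.11.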

How the data were processed

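RNA of MOLM-13 cells was sequenced in bulk on an Illumina HiSeq from TruSeq libraries, as the labels' protocols state. The authors deposited unnormalized counts for each Ensembl gene ID and 5 summary rows, which entered neither library sizes nor tests. Their share of the reads was 24.95% for parental cells and 27.14%, 24.57% and 29.81% for courses 1, 3 and 5. The submitters' processing notes name HTSeq 0.6p1, TopHat2 2.0.11, FastQC 0.11.5 and, as build, hg19. The 58735 IDs all matched GENCODE release 29, which is annotated on another build, so it is unsure which build the counts rest on, and gene positions were used only to find neighbours and overlaps. Reads with several alignments were counted for no gene, so near-identical genes are undercounted. The labels list 8 samples, of which 4 libraries were analysed. The 3 busulfan libraries and the other parental library were not analysed here.

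The tools were DESeq2 1.42.0, limma 3.58.1 and edgeR 4.0.16 under R 4.3.3. edgeR's filterByExpr (minimum count 10, minimum total 15) kept 18612 genes, and CPM was computed from the deposited counts with TMM factors of those genes. edgeR's quasi-likelihood test compared the 3 DMSO libraries with the parental one and tested a slope over the number of courses, with Benjamini-Hochberg adjusted p under 0.05 as the threshold. Pairs of single libraries got no test but a log2 ratio of CPM and its exact binomial 95% interval. A count of 0 was set to 3 counts per library, which gives a bound. The 39 genes and the other gene lists were chosen with earlier results of these data known. All of the 39 were named, and of each other list up to 4 genes with the largest pooled log2 fold change at a mean of at least 1 CPM, besides genes with few counts. Some genes of the other lists are not reported here. Promoter windows of RefSeq (GRCh38.p14) were searched on both strands. The functions were tested on simulated counts with 200 changed genes.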

Additional observations from a re-analysis of the deposited data

How the results depend on the processing

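Of 204 recomputed values 158 kept their direction and side of the threshold, or stayed within 1.5 times for a count, and 0 were reversed. Leaving out 1 library at a time gave 0 to 6 genes called in the pooled comparison and 0 to 7 for the slope, with 1 residual degree of freedom, and the lone library of each course was assumed to vary like the others. For the slope, DESeq2 and edgeR without a filter on low counts each called 2. With the minimum at 1 CPM, 2 genes were apart and lower in course 1 than in parental cells, beside 5.70% of all genes. There were 5 lower in course 3, beside 4.13%, and 6 lower in course 5, beside 7.32%. Course 3 against course 1 had 2 higher and 7 lower, beside 5.14% and 6.14%. Course 5 against course 1 had 4 higher and 6 lower, beside 8.40% and 11.1%. Course 5 against course 3 had 1 lower, beside 2.11%. Each comparison has IFITM1 or OAS1 among its lower genes. Both reached 1 CPM only through libraries where they were higher, so these counts support nothing about the set. At 1.5-fold, course 1 against parental cells had 3 higher and 1 lower, and courses 3 and 5 against course 1 had 2 higher each. Scaled by total counts, which moves the median of all genes by -0.11 on the log2 scale, course 1 had 0 higher than parental cells, since STAT2 lies just above 2-fold. At 5 CPM, 3 of 17 genes were lower in all DMSO libraries and 4 lowest in course 1. Leaving out 1 library in turn, 5 to 8 were higher in every DMSO library left, and 10 (without course 5) to 17 (without the parental library) were highest in course 1, since fewer libraries were compared. These orders under other settings were chosen after seeing the data. No share over all genes is given for these orders, nor for the counts at 1.5-fold or scaled by total counts. Those counts say nothing about the set. No paired analysis was possible because each group holds 1 library. Depth limits the 11 genes under 1 CPM, for which 3 counts are 0.0507 to 0.0696 CPM.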
